A study of Mus musculus with 20 samples.

Results

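This account describes the histone marks of the liver lacking carnitine palmitoyltransferase 2 (Cpt2) after a 24 h fast. Members are the regions of H3K27ac and of H3K4me1 in 4 chromatin immunoprecipitation sequencing (ChIP-seq) libraries, from 2 livers for each mark, out of 20 samples in the series. A region of a mark was a group of overlapping peaks that held a peak of both livers, and an overlap of 1 base was enough. This gave 35880 H3K27ac regions and 34077 H3K4me1 regions, out of 297952 regions when the same rule was applied to both marks in all 4 genotypes. The livers came from 9-week-old male C57BL/6 mice. The genotypes were wild type (WT), loss of Cpt2 in the liver (Cpt2 L-/-, here Cpt2 KO), loss of Ppara (Ppara KO), and loss of both, Cpt2 L-/-;Ppara-/-, called the double knockout. Every group had been fasted, so no comparison here is with a fed liver. The study asked how hepatic fatty acid oxidation and Ppara bear on chromatin in the fasted liver. The labels do not name the Cre line behind the liver knockout, and bulk liver holds hepatocytes together with endothelial, Kupffer and stellate cells.

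Cpt2 sits on the inner mitochondrial membrane and returns long-chain acylcarnitines to acyl-CoA, the last step of the carnitine shuttle before β-oxidation. Ppara is a nuclear receptor that is bound by fatty acids and drives oxidation and ketone genes in fasting. Acetylation of lysine 27 on histone H3 (H3K27ac) marks active promoters and active enhancers. Monomethylation of lysine 4 (H3K4me1) marks enhancers, active or poised, and is usually depleted at the start of active genes, where trimethylation takes its place. A region with both marks therefore usually reads as an active enhancer or the flank of a promoter, and a region with H3K27ac alone often as a promoter.

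Gene starts in an H3K27ac region fell into 3 kinds, of which the third differs from the others in CG content. Of each kind 3 starts are shown. They are those with the highest acetylation rank among starts in the promoter table that coincide with the outer end of the annotated gene, so a stronger gene whose listed start lies elsewhere, such as Gga1 or Nr1i3, is not among them. Each line gives the 150 bases before the start of the gene, 5′ to 3′ on the gene's strand, from RefSeq (GRCm38.p6), with capitals marking every CG dinucleotide. The first kind lay in a region with H3K27ac and no overlapping H3K4me1 region. It is shown by Fam126b (chr1:58586334-58586483, minus strand), Nup205 (chr6:35177466-35177615, plus strand) and Ankrd13a (chr5:114774798-114774947, plus strand).
Fam126b: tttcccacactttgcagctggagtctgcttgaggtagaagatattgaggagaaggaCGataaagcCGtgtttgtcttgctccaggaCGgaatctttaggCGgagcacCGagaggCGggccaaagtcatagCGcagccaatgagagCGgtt
Nup205: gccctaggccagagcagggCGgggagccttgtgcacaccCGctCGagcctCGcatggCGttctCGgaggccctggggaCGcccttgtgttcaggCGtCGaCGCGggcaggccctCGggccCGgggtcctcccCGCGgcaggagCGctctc
Ankrd13a: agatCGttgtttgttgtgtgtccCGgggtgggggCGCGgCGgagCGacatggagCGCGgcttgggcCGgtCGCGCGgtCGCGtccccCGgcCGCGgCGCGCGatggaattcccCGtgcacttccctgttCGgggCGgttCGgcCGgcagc
The second kind lay in an H3K27ac region that met H3K4me1, but the start itself was outside the H3K4me1 region. It is shown by Dnaja1 (chr4:40722318-40722467, plus strand), Abcd3 (chr3:121815303-121815452, minus strand) and Anp32a (chr9:62341193-62341342, plus strand).
Dnaja1: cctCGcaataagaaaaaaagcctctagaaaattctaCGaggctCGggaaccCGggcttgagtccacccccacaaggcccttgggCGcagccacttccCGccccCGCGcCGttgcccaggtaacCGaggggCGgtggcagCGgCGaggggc
Abcd3: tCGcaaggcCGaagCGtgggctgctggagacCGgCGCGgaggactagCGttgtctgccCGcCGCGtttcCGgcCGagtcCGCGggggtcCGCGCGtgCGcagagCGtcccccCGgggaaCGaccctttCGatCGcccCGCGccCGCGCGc
Anp32a: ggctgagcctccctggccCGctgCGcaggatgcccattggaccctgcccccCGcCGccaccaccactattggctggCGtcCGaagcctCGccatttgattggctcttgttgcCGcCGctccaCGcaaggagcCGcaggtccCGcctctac
In the third kind the start lay inside both marks. It is shown by Cidec (chr6:113435761-113435910, minus strand), Ifitm5 (chr7:140950244-140950393, minus strand) and Rdh7 (chr10:127889248-127889397, minus strand).
Cidec: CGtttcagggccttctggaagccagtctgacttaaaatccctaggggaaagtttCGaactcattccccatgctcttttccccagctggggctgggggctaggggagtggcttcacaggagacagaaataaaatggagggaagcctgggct
Ifitm5: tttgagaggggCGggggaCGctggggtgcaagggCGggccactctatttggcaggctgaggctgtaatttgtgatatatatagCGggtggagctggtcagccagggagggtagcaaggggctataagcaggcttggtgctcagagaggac
Rdh7: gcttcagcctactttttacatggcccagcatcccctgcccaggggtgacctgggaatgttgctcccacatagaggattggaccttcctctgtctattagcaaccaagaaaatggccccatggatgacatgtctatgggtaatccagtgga
The 150 bases held 8 to 25 CG dinucleotides in the first kind, 12 to 28 in the second and 0 to 4 in the third. None of the 9 held TATAAA on either strand.

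The 2 Cpt2 KO livers gave 46445 and 47361 H3K27ac peaks, of which 85.4% and 83.0% overlapped a peak of the other liver. They gave 62998 and 72151 H3K4me1 peaks, of which 65.6% and 55.0% did. The lower of these shares was the lowest of the 8 H3K4me1 libraries, where the others lay between 60.1% and 85.7%. The H3K4me1 regions counted here are therefore the part of a less repeatable mark that both livers had, and a region without H3K4me1 was in many cases marked in 1 liver. Read depth is not in the peak lists and is unknown.

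The regions lay at genes of hepatocytes, as the tissue label says. H3K27ac regions were found at all 16 listed genes of hepatocyte secreted proteins and all 14 listed hepatocyte transcription factors, but at 0 of 6 cholangiocyte markers and 0 of 10 genes typical of other tissues. All 6 endothelial markers and all 10 housekeeping genes had one too. Of all 21896 protein-coding genes, 10786 (49.3%) had one. Here a region counted for a gene when that gene was the nearest and its body lay within 5000 bases. The deleted gene itself, Cpt2, carried acetylation over its start (chr4:107920649-107924008), with folds over input of 18.7 and 23.3 in Cpt2 KO, 11.5 and 16.9 in WT, 8.75 and 9.80 in Ppara KO and 9.33 and 12.2 in the double knockout. The Cpt2 KO livers were the highest of the 8, but the difference from WT had an adjusted p of 0.35 (limma). An interval past the other end of the gene (chr4:107901663-107903225) was called in both WT livers, with folds of 7.77 and 9.87, and in both Ppara KO livers, with 4.78 and 5.52. It was called in no Cpt2 KO or double knockout liver. A histone mark at the ends of the gene does not show whether the deleted part is gone, so this is no check of the genotype labels.

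Roughly every other acetylated region in the Cpt2 KO liver also carried H3K4me1. Of the 35880 H3K27ac regions, 18245 (50.9%) met an H3K4me1 region and 17635 (49.1%) did not. Of the 34077 H3K4me1 regions, 19620 (57.6%) met H3K27ac and 14457 (42.4%) did not. Where the marks met they covered each other almost fully: the median share of bases covered was 93.1% for the H3K27ac region and 83.1% for the H3K4me1 region. In bases, H3K27ac with H3K4me1 took 29.7 Mb and H3K27ac alone 15.4 Mb, while H3K4me1 with H3K27ac took 32.4 Mb and H3K4me1 alone 13.6 Mb.

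The class with H3K27ac only was not all free of H3K4me1. Of its 17635 regions, 10518 (59.6%) met no H3K4me1 peak in either liver, 6791 (38.5%) met one in 1 liver, and 326 (1.85%) met peaks of both livers that did not overlap each other. Counted over all H3K27ac regions, 29.3% met H3K4me1 in no liver, 21.1% in 1 liver and 49.6% in both. Liver 1 alone supplied 5086 of the 7561 regions marked in 1 liver and liver 2 alone 2475. The regions marked in 1 liver were intermediate in other measures too: the median width was 610 bases with H3K4me1 in no liver, 772 in 1 and 1242 in both, and the share near a gene end was 41.9%, 30.1% and 15.5%. H3K4me1-only regions were more often free of the other mark, since 11377 of the 14457 (78.7%) met no H3K27ac peak in either liver.

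Regions with both marks were wide and regions with a single mark narrow. The median width of an H3K27ac region was 1202 bases with H3K4me1 (quartiles 678 and 2047) and 679 bases without (448 and 1103). An H3K4me1 region had a median of 1177 bases with H3K27ac (712 and 2031) and 724 without (487 and 1147). The tail differed more than the middle, as 4721 H3K27ac regions with both marks (25.9%) reached 2000 bases against 999 of those with H3K27ac only (5.66%). At 5000 bases and above there were 626 against 20. A wide region has more bases on which to meet a peak of the other mark, so class and width are linked by the overlap rule.

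**Figure D1:**
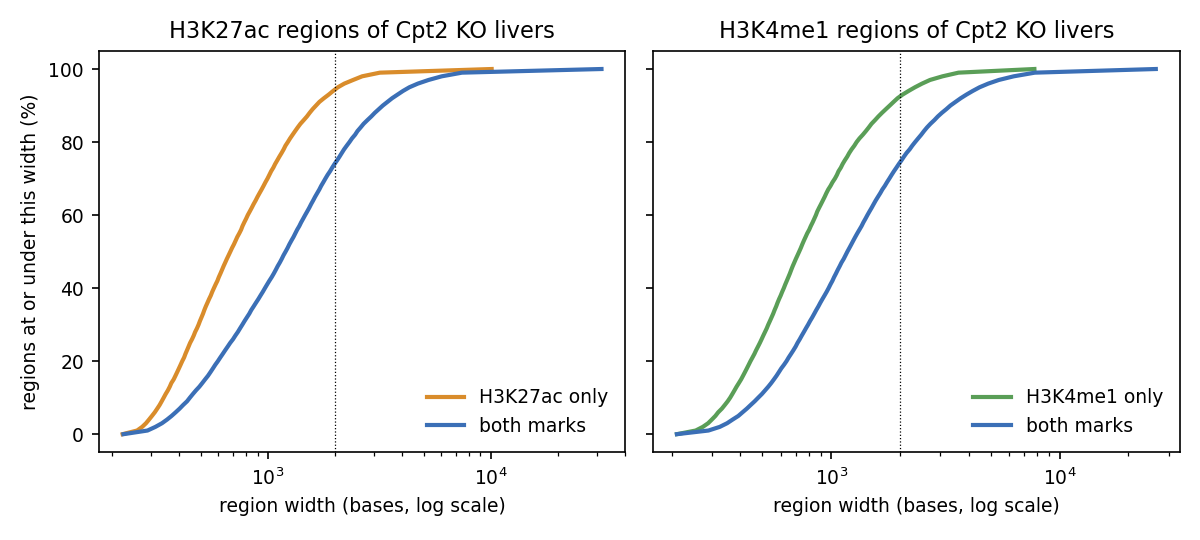
Cumulative share of regions (vertical axis, percent) by region width in bases (horizontal axis, log scale) in the Cpt2 KO liver, one line for each mark and class. The 2 lines for regions with both marks lie to the right, with medians of 1202 and 1177 bases, and those for regions with a single mark to the left, at 679 and 724.

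The strength of a region was read as the percentile rank of its fold over input within all peaks of that library and mark, where 100 is the strongest peak. H3K27ac regions had a median rank of 63.3 in liver 1 and 64.6 in liver 2 where H3K4me1 was present, and 56.1 and 56.5 where it was not. The corresponding median folds were 9.92 and 9.21 against 8.81 and 8.09. For H3K4me1 the gap was wider, with median ranks of 73.5 and 69.1 where H3K27ac was present and 48.2 and 58.8 where it was not. The strongest 10% of ranks held 14.3% of the H3K27ac regions with both marks and 9.65% of those without H3K4me1, and 15.0% against 2.84% of the H3K4me1 regions with and without H3K27ac.

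Within a band of width the order of the acetylation ranks turned. Among H3K27ac regions under 500 bases wide, the median ranks were 37.7 and 37.1 with H3K27ac only and 25.6 and 29.0 with both marks. From 500 to under 1000 bases they were 55.1 and 55.5 against 43.2 and 46.6, and from 1000 to under 2000 bases 77.1 and 77.4 against 69.1 and 70.3. From 2000 bases up the classes lay close together, at 87.7 and 88.1 against 87.5 and 86.8. The higher acetylation rank of regions with both marks over the whole set thus did not hold at a given width below 2000 bases. It did hold by position: near a gene end the ranks were 67.9 and 72.0 for H3K27ac only and 75.5 and 78.9 for both marks, and away from gene ends 50.4 and 48.6 against 60.6 and 61.4. For H3K4me1 the 2 livers parted. Under 500 bases its ranks were 39.3 and 41.3 with H3K4me1 only and 46.3 and 38.0 with both marks. From 500 to under 1000 bases they were 47.1 and 54.0 against 64.2 and 49.2. From 1000 to under 2000 bases they were 55.6 and 75.3 against 76.5 and 72.3. The order thus held in liver 1 but turned in liver 2 below 2000 bases. Near a gene end liver 2 had 58.1 against 57.3.

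A larger share of H3K27ac-only regions than of the other classes lay near gene ends, although most regions of every class lay farther away. A region was called near a gene end when its middle lay at most 1000 bases from the start or finish of a protein-coding gene, which held for 6492 regions with H3K27ac only (36.8%) and 2950 H3K27ac regions with both marks (16.2%). For H3K4me1 the numbers were 1413 (9.77%) without and 2241 (11.4%) with H3K27ac. The median distance to the nearest gene end was 4214 bases for H3K27ac only, 9902 for H3K27ac with both marks and 10750 for H3K4me1 only. Of the near regions whose nearest end belonged to a gene of known strand, the end was the start of the gene for 5000 of 5242 (95.4%) with H3K27ac only, 1970 of 2385 (82.6%) with both marks and 784 of 1112 (70.5%) with H3K4me1 only. H3K27ac-only regions lay a median of 12581 bases from the nearest H3K4me1 region of both livers, and 19.8% lay within 1000 bases of one. As given above, 38.5% of them met an H3K4me1 peak in 1 liver. An H3K4me1-only region lay a median of 3626 bases from the nearest H3K27ac region.

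**Figure D2:**
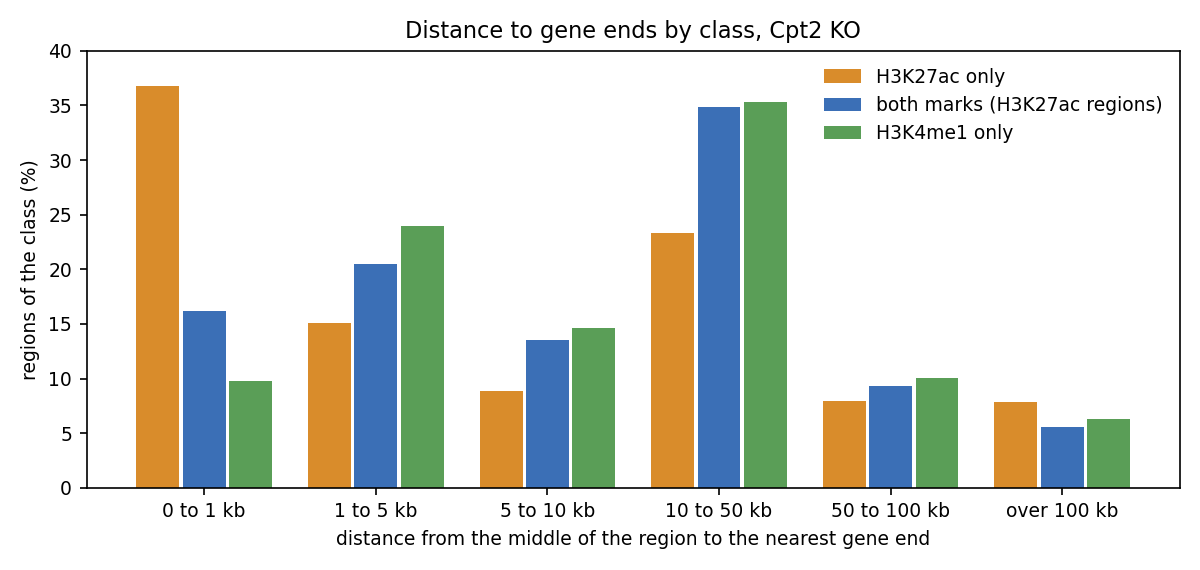
Share of regions (vertical axis, percent) by distance from the region's middle to the nearest end of a protein-coding gene (horizontal axis, bins in bases) for the classes of regions in the Cpt2 KO liver. The bar of regions with H3K27ac only is the highest within 1000 bases, at 36.8%, and the classes with H3K4me1 are highest between 10000 and 50000 bases.

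Read from the gene starts, few of the acetylated starts lay inside H3K4me1. Of 21262 annotated starts of 17491 genes, 7526 (35.4%) lay in an H3K27ac region: 4706 in regions with H3K27ac only and 2820 in regions with both marks. Of those 2820 starts, 2387 (84.6%) nonetheless lay outside the H3K4me1 region, so 433 of the 7526 acetylated starts (5.75%) were inside H3K4me1. Among all 21262 starts the share was smaller still, at 841 (3.96%). Acetylated starts were thus inside H3K4me1 somewhat more often than starts over the whole set. The sequence around the starts, 300 bases long, differed between the third kind and the first 2, as in the examples printed above. The median was 22 CG dinucleotides for starts in H3K27ac-only regions (quartiles 14 and 30) and 22 for starts in both-mark regions but outside H3K4me1 (14 and 29), against 7 for starts inside both marks (4 and 15) and 7 for starts in no H3K27ac region (2 and 19). The letters TATAAA, on either strand, occurred in 6.74%, 6.91%, 10.6% and 15.7% of these starts in the same order, and in 12.6% of all 21262.

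The strongest acetylation in the Cpt2 KO liver lay at a mixture of genes of general function and genes of the liver. Genes were ranked by their strongest region, as the mean rank over the 2 livers. First came Ap3s1, which encodes an adaptor complex subunit of vesicle transport, with folds of 69.4 and 75 in Cpt2 KO and 46.2 and 48.5 in WT. Fam126b, part of a plasma membrane lipid kinase complex, followed with 55.9 and 54.2 in Cpt2 KO. Its folds were 30.6 and 17.0 in WT, 38.8 and 40 in Ppara KO and 57.8 and 62.8 in the double knockout, and no H3K4me1 peak met it in either Cpt2 KO liver. Both livers with Cpt2 deleted, alone or with Ppara, were thus above WT and Ppara KO at Fam126b, without overlap. Gga1 (Golgi sorting) and Rfx3 (a factor of cilium genes) were also near the top, with folds between 52.5 and 58.1 in Cpt2 KO.

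Of the 20 strongest genes, 4 are described with every liver because of what they are known to do or how they stood to WT, a choice made after their values were seen. Abcd3, the peroxisomal membrane transporter for fatty acids and bile acid precursors, had folds of 51.0 and 48.2 in Cpt2 KO, 38.2 and 49.5 in WT, 25.2 and 26.6 in Ppara KO and 24.0 and 27.2 in the double knockout. The 4 livers with Ppara deleted were below the 4 with Ppara, and the Cpt2 KO and WT livers overlapped. Nr1i3, the nuclear receptor CAR that controls drug and bilirubin clearance, had 47.9 and 47.9 in Cpt2 KO against 17.5 and 22.7 in WT, 30.6 and 34.2 in Ppara KO and 36.1 and 34.4 in the double knockout. Both Cpt2 KO livers were the highest and both WT livers the lowest at Nr1i3, whose WT ranks were still 94.1 and 94.3. Dnaja1, a cochaperone of Hsp70 proteins, had 55.4 and 46.4 in Cpt2 KO, 24.9 and 32.0 in WT, 29.4 and 31.8 in Ppara KO and 37.3 and 29.7 in the double knockout. Pnrc1, a coregulator of nuclear receptors, went the other way in level, with 46.8 and 48.5 in Cpt2 KO against 50.3 and 64.7 in WT. These genes were chosen for their high values in Cpt2 KO, which favours values above the other genotypes, and the comparison is a description.

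**Figure D3:**
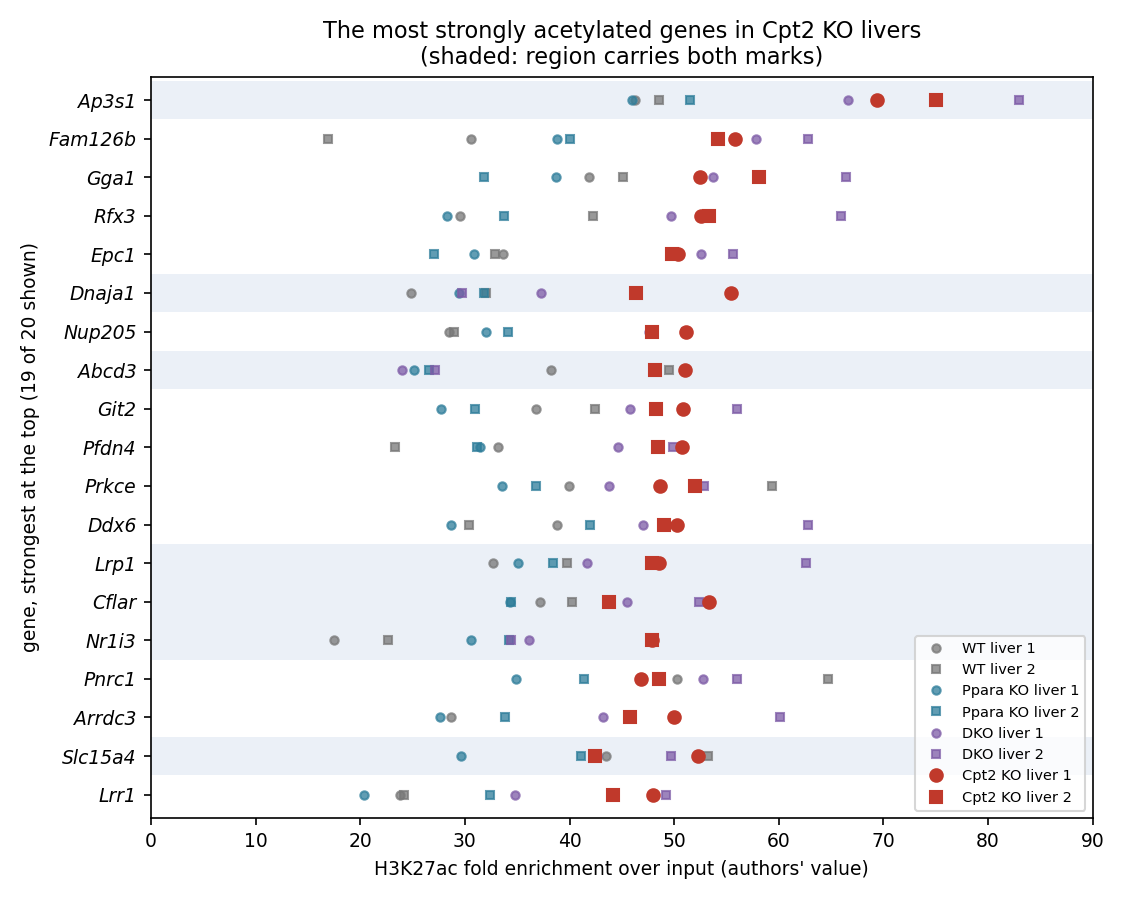
H3K27ac fold over input (horizontal axis, linear) of 19 of the 20 genes with the highest acetylation rank in Cpt2 KO (vertical axis), with a point for each liver of each genotype and blue shading where the region has both marks. Ap3s1 stands apart at 69.4 and 75 in Cpt2 KO, and the other 18 genes lie close together in Cpt2 KO but spread widely over the other genotypes.

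Further genes of the 20 were Epc1, Nup205, Git2, Pfdn4, Prkce, Ddx6, Lrp1, Cflar, Arrdc3, Slc15a4 and Lrr1, with folds between 42.5 and 53.4. Among them, Lrp1 is a hepatic lipoprotein receptor and Cflar an inhibitor of death receptor signalling. All 20 were strong in the other genotypes as well: the lowest rank in any liver of another genotype was 88.5, for Fam126b in WT liver 2. Of the 20 strongest regions 8 had both marks and 12 had H3K27ac only, 6 of them with H3K4me1 in neither liver, and 11 lay within 1000 bases of a gene end. Over the 100 strongest genes 50 had both marks at the strongest region, over the 1000 strongest 556 (55.6%), and over all 10786 genes with an H3K27ac region 4412 (40.9%).

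Width and strength ordered the regions differently. The widest H3K27ac region, 31463 bases, lay at Mat1a, the liver's S-adenosylmethionine synthetase, with folds of 27.4 and 25.8 and with H3K4me1 at 14.1 and 11.9. Plpp3 (a lipid phosphatase; 22465 bases), Clmn (20602; folds 42.4 and 39.9), Oaf (18506) and Adk (adenosine kinase; 16353) followed. Clmn was also among the 100 strongest genes, and the median width of their strongest regions was 2166.5 bases. Of the 100 widest regions 99 carried both marks and 12 lay near a gene end, and their median rank was 96.1. By total acetylated bases the leading genes were Tns1 with 31 regions over 75394 bases, Mtss1 with 31 over 74459, Rxra with 29 over 59154 and Nfia with 39 over 58420. Rxra encodes the partner of Ppara on DNA, and Ppara itself had 20 regions over 48578 bases.

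H3K4me1 without H3K27ac was strongest at Gata4, a developmental transcription factor that the liver's endothelial cells also use, with H3K4me1 folds of 15.2 and 17.4 over 2564 bases. Psd3 followed with 16.7 and 13.9, Fam83a with 14.8 and 15.2, 2900026A02Rik with 14.2 and 13.6, and Tiam2, a Rac exchange factor, with 15.0 and 13.0. Fam83a met no H3K27ac peak in either Cpt2 KO liver and the other 4 met one in 1 liver. The same 4 were acetylated in both WT livers, for example Tiam2 with folds of 19.5 and 20.5 and Gata4 with 6.51 and 7.77.

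Fixed lists of genes show where the acetylation of the Cpt2 KO liver lay, and how it stood to WT. For the second question limma was fitted to the log2 folds of all 18281 H3K27ac intervals that were called in all 8 libraries, after each library was centred on its median, and 13.5% of the intervals passed an adjusted p of 0.05 for Cpt2 KO against WT, 5.82% higher and 7.69% lower. The balance rests on the centring: 1064 intervals were higher and 1405 lower with it, and 1961 higher and 576 lower without it. Among the 169 listed genes, 136 had an H3K27ac region and 118 had an interval in this test, of which 6 were higher and 17 lower in Cpt2 KO. The genes that passed are named below because they passed, so the choice was made after their values were seen. The value of a gene is that of its strongest tested interval, which can lie at a distance from the gene. All 23 of these calls were lost under at least 1 other setting and none turned direction. Of the 23, 10 (6 higher and 4 lower) passed under each scaling tried (median centring, none and quantile normalization), among them Cidec, Hilpda, Arntl, Pecam1, Fasn and Trf. All 23 were lost without Cpt2 KO liver 1 and 21 without WT liver 2. Over all intervals there were 2469 calls with every library, 167 without Cpt2 KO liver 1, 450 without WT liver 2 and 937 without Cpt2 KO liver 2.

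The genes of fatty acid oxidation were strongly acetylated and carried both marks. All 16 listed Ppara targets of oxidation and ketone synthesis had an H3K27ac region, with a median rank of 95.3 for the strongest region of each gene, against 80.2 over all genes with a region. In 15 of the 16 the strongest region had both marks. Acaa1b and Cyp4a14, peroxisomal and microsomal enzymes of fatty acid breakdown, ranked at 99.5 and 98.4. Acadl, an acyl-CoA dehydrogenase of mitochondrial β-oxidation, ranked at 97.9 and was the 1 gene of the list whose strongest region had H3K27ac only. Of the 13 Ppara targets tested, 0 passed the limma test in either direction, and their median log2 difference was 0.23, against −0.03 over all intervals. The highest folds at these genes, summed over the list without centring, were 344 to 393 in Cpt2 KO with 16 of 16 genes called, 225 to 270.5 in WT with 16, 168 to 181 in Ppara KO with 14 and 188 to 212 in the double knockout with 14. The Cpt2 KO livers were above all 6 others in this sum, without overlap. The H3K27ac sums of the carnitine shuttle and of the stellate cell markers separated in the same way, and those of the other lists did not. Without centring, the median of all intervals was 0.22 higher in Cpt2 KO than in WT on the log2 scale. The part of this shift in the sums was not tested.

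The carnitine shuttle, which brings fatty acids into mitochondria, had acetylation at 5 of its 6 listed genes, with a median rank of 93.1. Cpt1a, its rate-limiting enzyme, ranked at 98.5 and had 7 regions over 20066 bases. Slc25a20, the carrier for acylcarnitines, ranked at 91.7 with H3K27ac only. Of the 5 tested, 0 passed. Among genes of the lipid droplet, 9 of 10 had a region, with a median rank of 91.9, and 2 of 8 were higher and 1 lower. Cidec, which enlarges lipid droplets, had folds of 30.7 and 28.1 in Cpt2 KO, 13.2 and 13.3 in WT, 20.7 and 14.0 in Ppara KO and 22.1 and 23.0 in the double knockout. Its log2 difference from WT was 0.92 (SE 0.23, adjusted p = 0.02, limma). Hilpda, an inhibitor of lipolysis, had 19.0 and 19.1 against 8 and 11 in WT, a log2 difference of 0.80 with an adjusted p of 0.0498 (limma). Both Cpt2 KO livers were above both WT livers at these genes. The call of Hilpda was lost when the replicate number entered as a block, and in a fit of the WT and Cpt2 KO libraries alone. Plin5, which ties droplets to mitochondria, was lower by −0.79 at a wide interval over the gene and its neighbour Lrg1, with folds of 22.2 and 22.5 against 28.6 and 38.4 in WT. At the narrower Cpt2 KO region within it the folds were 18.0 and 16.3 against 28.6 and 16.5. The call of Plin5 was lost without centring and under quantile normalization.

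Genes of fat synthesis were among the less acetylated metabolic genes. In this list 10 of 12 genes had a region, with a median rank of 72.2. Scd1 and Thrsp had no region of both livers, but Scd1 had an H3K27ac peak in liver 1 and Thrsp in liver 2. Fasn, the fatty acid synthase, had folds of 8.29 and 11.8 in Cpt2 KO and 20.3 and 32.2 in WT. In Ppara KO they were 7.75 and 13.7 and in the double knockout 12.2 and 12.5, so the WT livers alone were high. The log2 difference of Cpt2 KO from WT was −1.60 (SE 0.29, adjusted p = 0.01, limma), and Fasn was the only call among the 8 tested. Me1 and Acacb, which supply NADPH and malonyl-CoA, still ranked at 99.3 each.

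Glucose and nitrogen metabolism had acetylation throughout. All 12 genes of gluconeogenesis and the fasting response had a region, with a median rank of 88.1, led by Foxo1, the insulin-controlled transcription factor, at 99.4 and Fbp1, a gluconeogenic phosphatase, at 97.95. Of the 12, 2 were lower: Irs2, an adaptor of the insulin receptor, by −0.93 and Cebpb, a fasting-responsive factor, by −1.06. Both calls were lost without centring. All 12 genes of the urea cycle and amino acid breakdown had a region, with a median of 87.2. Of 11 tested, 2 were lower: Nags, which makes the activator of the urea cycle, by −1.02 and Gls2, the liver glutaminase, by −1.09. Without centring the call of Nags was lost and that of Gls2 kept. The integrated stress response is a program set off by mitochondrial and amino acid stress. It had the smallest share of acetylated genes among the metabolic lists, 7 of 12 (58.3%), against 49.3% of all protein-coding genes. Its median rank was 74.6. Gdf15, its secreted hormone, ranked at 92.1, while Chac1 and Nupr1 ranked at 11.3 and 4.10. Of its 5 genes tested, 0 passed, but the test held only intervals called in all 8 libraries. H3K27ac peaks were called at 9 and 7 of the 12 genes in Cpt2 KO and at 5 and 5 in WT. The counts were 7 and 7 in Ppara KO and 8 and 8 in the double knockout. Nupr1 had a peak in both Cpt2 KO livers and both double knockout livers, and in no WT or Ppara KO liver. The summed highest folds of the list overlapped, at 71.8 to 106 in Cpt2 KO and 55.6 to 77.1 in WT.

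The hepatocyte transcription factors had the highest median rank of the lists, 96.8, with 98 of their 118 H3K27ac regions (83.1%) meeting H3K4me1. Nr1i3 and Rxra ranked at 99.95 and 99.7 and Onecut1 lowest at 42.3. Of the 13 tested, 5 were lower and 0 higher, among them Foxa1 by −0.70, Foxa2 by −0.62, Cebpa by −0.70 and Nr5a2 by −0.66. These 5 calls rest on the centring, since all were lost under quantile normalization and when the libraries were not centred, which moves the median of all intervals by 0.22 on the log2 scale. Summed over the 14 factors, the highest folds were 373 and 373 in the Cpt2 KO livers and between 368 and 402 in WT. Of the secreted proteins, Trf (transferrin) was lower by −1.11 and Fgg (fibrinogen) by −0.87. The call of Fgg was lost without centring and under quantile normalization, and that of Trf was kept. Of the 9 housekeeping genes tested, 1 was lower and 0 higher.

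The circadian clock list had a median rank of 94.9, and of its 10 genes tested 1 was higher, 3 were lower and 6 did not pass. Arntl, whose product Bmal1 is the positive arm of the clock, had folds of 15.5 and 13.7 in Cpt2 KO against 5.85 and 6.33 in WT, 6.24 and 7.69 in Ppara KO and 6.42 and 8.48 in the double knockout. The 2 Cpt2 KO livers stood above all 6 others. The log2 difference from WT was 1.03 (SE 0.25, adjusted p = 0.02, limma). Of the partners of Bmal1, Clock was lower by −0.86, and of the repressors, Cry1 was lower by −0.83 and Cry2 by −0.81. The calls of Clock, Cry1 and Cry2 rest on the centring, since all were lost without it, while that of Arntl was kept. The labels give one 24 h fast from 3pm to 3pm for all mice, but not the hour at which each liver was taken.

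**Figure D4:**
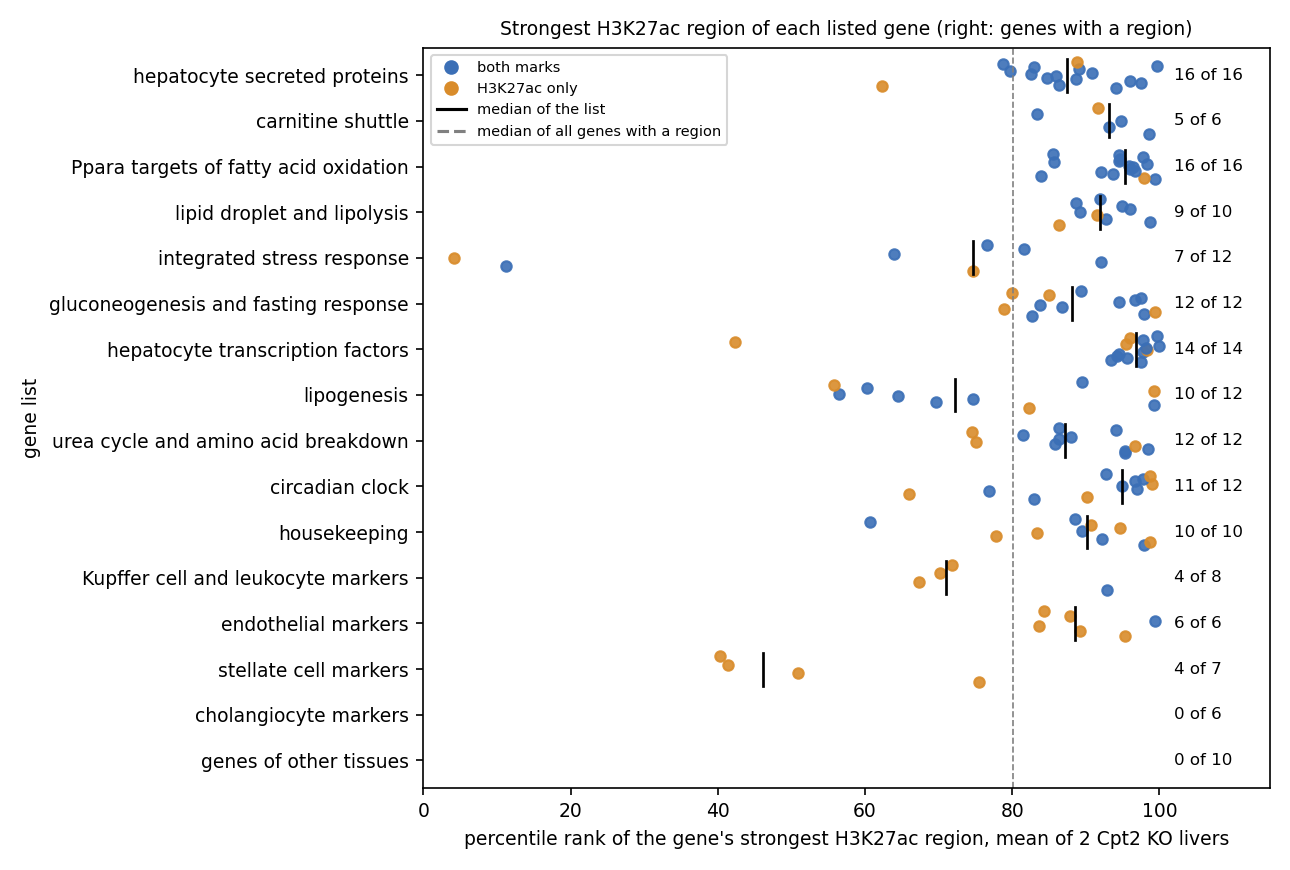
Percentile rank of H3K27ac at the strongest region of each listed gene in Cpt2 KO (horizontal axis, 100 = strongest) by gene list (vertical axis), blue for regions with both marks and orange for H3K27ac only. The dashed line is the median of all genes with a region, 80.2, and the points of endothelial, Kupffer and stellate markers are mostly orange.

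Markers of the other liver cells were acetylated mostly without H3K4me1. The 3 lists of endothelial, Kupffer and leukocyte, and stellate markers together had 63 H3K27ac regions, of which 14 (22.2%) met H3K4me1, against 50.9% of all H3K27ac regions and 78.6% at the genes of hepatocyte secreted proteins. At 12 of their 14 genes with a region, the strongest region had H3K27ac only. All 10 stellate regions and 7 of the 8 Kupffer and leukocyte regions had no H3K4me1, and 13 of 45 endothelial regions had it. No region was found at Adgre1, Marco and Cd3e or at Col1a1, Col3a1 and Acta2, though Adgre1 and Col3a1 had an H3K27ac peak in liver 2.

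Some endothelial markers were higher in Cpt2 KO than in WT. Of 6 tested, 3 were higher and 0 lower: Pecam1, an adhesion molecule of vessel walls, by 0.91, Cdh5, the cadherin of endothelial junctions, by 0.77, and Stab2, a scavenger receptor of sinusoids, by 1.02 at an interval 23928 bases from the gene. Pecam1 had folds of 35.0 and 35.0 in Cpt2 KO, 18.8 and 13.6 in WT, 23.5 and 19.0 in Ppara KO and 28.4 and 41.1 in the double knockout. Over the whole list, with 6 of 6 genes called in every library, the summed highest folds were 113.6 to 131 in Cpt2 KO, 69.0 to 76.8 in WT, 77.6 to 90.3 in Ppara KO and 119 to 122 in the double knockout. The summed Kupffer and leukocyte list lay at 37.7 to 59.8 against 21.2 to 29.7 in WT. It lay at 37.5 to 39.2 in Ppara KO and 61.9 to 68.3 in the double knockout, also above WT. The stellate list lay at 37.2 to 40.5 against 16.5 to 21.1 in WT. Its sums were 8.14 to 13.7 in Ppara KO and 26.6 to 30.9 in the double knockout. The Cpt2 KO and WT livers did not overlap in any of the 3 sums, which are of folds without centring. A gene without a called peak added nothing to its sum. Stellate peaks were called at 4 and 5 of 7 genes in Cpt2 KO and at 2 and 3 in WT. The median folds of the called stellate genes overlapped, at 8.55 and 7.46 against 8.25 and 6.25. Kupffer and leukocyte peaks were called at 4 and 5 of 8 genes against 3 and 3, with median folds of 10.3 and 11.3 against 6.95 and 7.16. Of the 6 cholangiocyte genes, Sox9 alone was acetylated in any liver, and 1 gene cannot give the list a direction. Sox9 was called in both WT livers, at folds 12.5 and 19.7, and in neither Cpt2 KO liver. The Ppara KO livers also carried this peak, at 5.81 and 7.25, as did the double knockout livers, at 6.69 and 9.57. H3K4me1 was called at 2 cholangiocyte genes in each Cpt2 KO liver, and at 1 and 2 genes in the WT livers. In bulk liver more cells of a type and more mark per cell cannot be told apart, and the part of these cells in the other differences was not tested.

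The classes differed in how far the other genotypes shared their acetylation. Regions with H3K27ac only were acetylated in both livers of WT in 56.6% of cases, of Ppara KO in 67.6% and of the double knockout in 85.4%. Regions with both marks were so in 82.1%, 83.3% and 80.4%. The 7034 H3K27ac regions (19.6%) acetylated in no WT liver were narrow and weak, with a median width of 495 bases and median ranks of 40.1 and 37.4. Of them 25.5% had both marks, 8.29% lay near a gene end, and 78.6% had no H3K4me1 in either WT liver. The 24961 regions (69.6%) acetylated in both WT livers had a median width of 1158 bases and ranks of 69.4 and 70.9, and 60.0% had both marks. H3K4me1-only regions of the Cpt2 KO liver were acetylated in both livers of WT in 22.1% of cases, of Ppara KO in 17.8% and of the double knockout in 11.99%.

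A further mark, which took no part in defining the classes, was read over them. H3K9ac, an acetylation of active promoters, was available for 1 Cpt2 KO liver with 41122 intervals and 1 WT liver with 39287, so there is no replicate, and the exact binomial intervals cover counting error only. It met 49.97% of the H3K27ac-only regions (95% interval 49.2 to 50.7), 51.9% of the H3K27ac regions with both marks (51.2 to 52.6) and 26.96% of H3K4me1-only regions (26.2 to 27.7). The WT library met the same classes of Cpt2 KO regions in 47.8%, 54.6% and 28.5% of cases. The shares differed more by position: within 1000 bases of a gene end they were 91.3%, 87.8% and 64.2%. Away from gene ends H3K9ac met 45.0% of the regions with both marks (44.2 to 45.7) but 25.9% of those with H3K27ac only (25.1 to 26.8). At gene ends the first 2 classes were thus nearly alike in H3K9ac. Away from them H3K9ac met more of the regions with both marks, but these were also wider, at a median of 1163 bases against 622. Over all positions the order changed with acetylation rank. From rank 75 up, H3K9ac met 71.2% of regions with both marks and 81.6% with H3K27ac only. At ranks of 50 to 75 the shares were 47.0% and 48.5%, and at 25 to 50 they were 38.0% and 32.4%. Below 25 they were 35.4% and 32.4%. The part of width and rank in the difference was not tested.

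Whether the split of the marks was particular to the Cpt2 KO liver was tested per liver, by pairing the libraries of the 2 marks by their replicate number. In the deposited peak names the H3K27ac and H3K4me1 libraries of a genotype with the same replicate number carry the same identifying number, which the labels do not explain. Of the H3K27ac peaks, 60.0% and 56.3% met H3K4me1 in the Cpt2 KO livers (58.1% ± 2.61, SD, n = 2) against 55.7% to 67.5% in the 6 others (62.7% ± 3.91, SD, n = 6; exact permutation p = 0.214, two-sided). Of the H3K4me1 peaks, 51.1% and 40.5% met H3K27ac (45.8% ± 7.48, SD, n = 2) against 45.8% to 54.5% (49.2% ± 3.404, SD, n = 6; exact permutation p = 0.357). The ratio of median widths with and without H3K4me1 was 1.62 in both Cpt2 KO livers and 1.61 ± 0.11 (SD, n = 6) in the others (exact permutation p = 0.929). The difference in the share near gene ends was −21.3 and −16.2 percentage points against −20.4 ± 3.83 (SD, n = 6; exact permutation p = 0.571). In all 8 measures so tested the adjusted p was 0.929, and the smallest p that 2 livers against 6 can reach is 0.0714, so no difference could have passed 0.05.

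**Figure D5:**
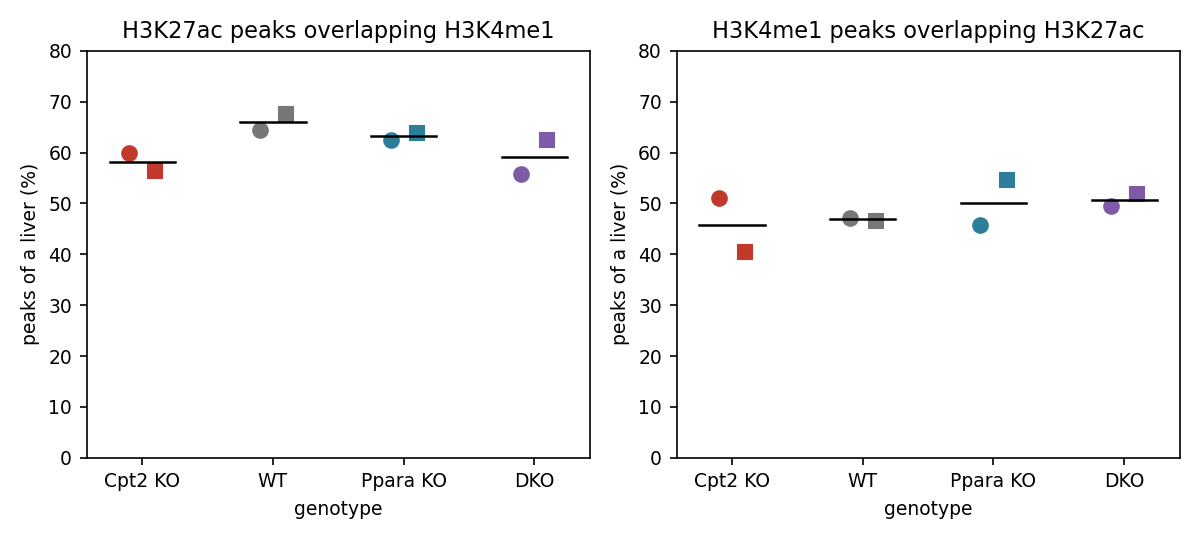
Share of peaks of one mark that meet a peak of the other mark (vertical axis, percent) in each liver by genotype (horizontal axis), H3K27ac peaks and H3K4me1 peaks in separate panels, with circles for liver 1, squares for liver 2 and a bar at the mean. The H3K27ac shares of the Cpt2 KO livers, 60.0% and 56.3%, lie within the range of the 6 others.

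With regions called in both livers, the share of H3K27ac regions meeting H3K4me1 was 50.9% in Cpt2 KO, 64.3% in WT, 58.8% in Ppara KO and 56.9% in the double knockout. There is 1 such value for each genotype and no test. The number of H3K4me1 regions was also lowest in Cpt2 KO, but the genotypes did not take the same order, at 34077 in Cpt2 KO, 45294 in WT, 36200 in Ppara KO and 46481 in the double knockout. The share of H3K4me1 peaks also found in the other liver was lowest in Cpt2 KO liver 2, as given above. The part of that overlap in the lower share was not tested.

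Both classes of acetylated regions held intervals above and below WT in the limma fit. Of 11115 tested H3K27ac intervals at regions with both marks, 600 (5.40%) were higher and 974 (8.76%) lower, with a median log2 difference of −0.07. Of 7141 at regions with H3K27ac only, 464 (6.50%) were higher and 423 (5.92%) lower, with a median of 0.02. All of these are differences after centring. For H3K4me1, 0 of 19526 intervals passed an adjusted p of 0.05 (limma), with 1502 at an unadjusted p under 0.05.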

How the data were processed

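The peak lists were deposited by the authors, 1 for each library of each mark (H3K27ac and H3K4me1, 2 livers for each of 4 genotypes, and H3K9ac in 1 Cpt2 KO and 1 WT liver). Reads had been aligned with BWA to mm10 and peaks called with MACS2 2.1.0, per the submitters' processing notes, and the peak names of 1 H3K27ac library of Ppara KO carry another word in place of the build. Per the labels' protocols a pooled input served as background. Each peak has a fold enrichment over background, a ratio the authors' peak caller gave, and the authors' −log10 q. No read counts were used here, so depth is unknown.

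Regions, classes, percentile ranks and distances were computed in Python 3.11.15 with pandas 2.3.3, as described with the results, over 21896 protein-coding genes of RefSeq (GRCm38.p6), whose table and promoter sequences also matched all 169 listed genes. Positions are 1-based. The comparison with WT used limma 3.58.1 in R 4.3.3 on log2 fold, centred on each library's median, over intervals called in all 8 libraries of a mark. All 8 libraries entered 1 fit of 4 genotype means with an intensity trend, and Benjamini-Hochberg adjustment ran over all intervals. An interval called in all 8 libraries leaves out regions lost in any genotype. The script was tested on simulated data. Measures per liver were compared by exact permutation tests (SciPy 1.17.1), two-sided.

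The members and gene lists were chosen with earlier results of these data known. Genes named were the 20 with the strongest H3K27ac region, the 5 leading each single-mark class, the 5 widest regions, Cpt2, list members of highest and lowest rank, and those that passed the test. The 2 livers of a group carry different numbers in the peak names, but nothing in the labels says how separately they were processed, so p-values measure the spread between these samples. Alternatives were a minimum −log10 q of 10, an overlap of 50%, 5000 bases as near, shared bases only, other scalings, a pseudocount of 1, a replicate block and each library left out. The inputs were not used here. Some members of the gene lists and 1 of the 20 strongest genes are counted but not reported by name here.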

Additional observations from a re-analysis of the deposited data

How the results depend on the processing

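The classes of the Cpt2 KO liver kept their order in width and in rank over all regions under every alternative tried, but the shares moved. With peaks of a −log10 q of at least 10, 45.8% of H3K27ac regions met H3K4me1 (50.9% before), and the width ratio of regions with both marks to single-mark regions was 1.78 for H3K27ac and 1.57 for H3K4me1 (1.77 and 1.63 before). With an overlap of 50% of the shorter, the share was 46.2%, the width ratios 1.69 and 1.55, and the difference in the share near gene ends −24.8 percentage points for H3K27ac (−20.6 before). For H3K4me1 that difference turned from 1.65 to −0.45 points, so H3K4me1 with and without H3K27ac cannot be ordered by closeness to genes. Within 5000 bases the differences were −15.2 and 2.99 points, and over bases shared by both livers the width ratios were 1.85 and 1.92. From a single liver, H3K4me1 gave 62998 to 72151 regions, the shares were 56.3% to 60.0% of H3K27ac (59.97% at most) and 40.5% to 51.1% of H3K4me1, the width ratios 1.62 for both livers (H3K27ac) and 1.76 to 1.77 (H3K4me1), the rank differences 4.73 to 9.05 and 15.0 to 22.7, and the differences near gene ends −21.3 to −16.2 and 2.53 to 4.08 points.

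In Cpt2 KO minus the 6 other livers, the rank difference of H3K27ac turned from −0.04 to 0.57 with the stricter q and to 1.34 with crossed replicate numbers, and the H3K4me1 share near gene ends from −0.26 to 0.0808 points with crossed numbers. With each liver left out, the H3K27ac width ratio ran from −0.0109 to 0.0488, its rank difference from −2.20 to 2.12 and its share near gene ends from −0.90 to 4.16. The H3K4me1 share with H3K27ac ran from −8.68 to 1.90, its rank difference from −5.59 to 2.17 and its share near gene ends from −1.03 to 0.51. None of these could pass 0.05.

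Calls of H3K27ac against WT numbered 2469 (limma), 2537 without centring, 2219 with quantile normalization and 2483 with the pseudocount, and 167 to 2686 with a library left out, where a lone liver was assumed to vary like the others. For H3K4me1 the count was 0, and 0 to 6 with a library left out. With the replicate number as a block (replicate block) there were 2768 for H3K27ac and 0 for H3K4me1. The correlations between deviations of same-numbered libraries of different genotypes, within a mark, ran from −0.49 to 0.17. The lowest was that of H3K4me1 between Cpt2 KO and Ppara KO. The numbers thus showed no common pairing of livers across genotypes. These values do not bear on whether a number stands for the same liver in both marks. Depth limits every absence: a region without a called peak of a mark may hold the mark below the caller's threshold, and the cause of the changes above was not tested.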
